A study of Homo sapiens with 6 samples.

Results

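The short arm of chromosome 12 was described from the RPB1 and pSer2 ChIP-seq regions that lie on it. Its members were all regions on chromosome 12 of hg38 that lie before the gap in the region lists around the centromere, which were 2911 of the 271336 regions in the 4 lists. The arm was chosen by its region counts, namely a low ratio of SHP-1 KO to WT pSer2 regions beside a ratio of RPB1 regions that was not low, and because it carries PTPN6, so these counts are given as a description and nothing is read from them. The last region of the arm ended at 34022743 and the next region on the chromosome started at 38316686, so the bound between the arms could lie anywhere in that gap without changing a member.

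The study asked whether SHP-1 acts on RNA polymerase II in liver cells. Both cell populations were untreated HepG2 cells, a human hepatoma line: SHP-1 WT cells, and SHP-1 KO cells that had been cut by CRISPR/Cas9 in PTPN6, the gene of SHP-1. The study grew clones from single cells, so each genotype may stand for a single clone. Its controls were untransfected cells and cells given a nontargeting guide, and which of these, and which of the PTPN6 guides, gave the cells used for ChIP-seq is not given in the sources used here. One antibody recognised the C-terminal domain of RPB1 (ab817) and the other the same domain phosphorylated on serine 2 (ab5095). There was 1 library for each antibody and genotype, so no difference below has a replicate check, no p-value was computed, and the intervals given cover counting error only. The 2 input libraries were not analysed here.

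RPB1 is the largest subunit of RNA polymerase II. Its C-terminal domain is a tail of repeats that is phosphorylated on serine 5 near gene starts and on serine 2 as the polymerase elongates, so RPB1 regions gather at promoters while pSer2 signal extends over gene bodies towards their ends. SHP-1 is a tyrosine phosphatase best known from blood cells. The arm carries glycolysis genes, complement genes, the genes of liver uptake transporters and clusters of natural killer receptor, bitter taste receptor and salivary protein genes.

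PTPN6 lies at chr12:6946468-6961316 on the forward strand. The guides are shown because they set where PTPN6 was cut. They were read from the study's oligo list and matched to hg38, and the capitals mark the PAM, the motif next to the target that Cas9 requires.
Sg1: gcattgatgtagtcggacccgGGG
Sg4: gtcccatactggcccgaggtGGG
Sg6: gggcccgcataggatatcgc
Sg1 matched chr12:6956188-6956208 on the reverse strand, in exon 8 of the 16 exons of the MANE transcript. Sg4 matched chr12:6957663-6957682 on the forward strand, in exon 10. Sg6, the nontargeting guide, had no match on the chromosome and is printed without a PAM.

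The regions on which the results turn lie in introns, and the bases around the summits of 4 of them are shown because they were listed in 1 genotype only. They are the strongest such pSer2 intron regions of SOX5 and ITPR2 in WT and of TEAD4 and BCAT1 in KO. The sequences are from the forward strand of hg38, with the 11 bases around the summit in capitals. They span chr12:23916392-23916492 in SOX5 (fold enrichment over input 5.05, 25 fragments), chr12:26709507-26709607 in ITPR2 (5.58, 27 fragments), chr12:3013783-3013883 in TEAD4 (4.71, 21 fragments) and chr12:24941024-24941124 in BCAT1 (4.44, 25 fragments).
SOX5 intron, WT only: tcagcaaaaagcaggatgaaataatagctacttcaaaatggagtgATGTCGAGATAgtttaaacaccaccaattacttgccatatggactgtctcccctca
ITPR2 intron, WT only: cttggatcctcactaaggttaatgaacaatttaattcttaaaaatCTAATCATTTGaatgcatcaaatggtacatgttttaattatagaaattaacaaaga
TEAD4 intron, KO only: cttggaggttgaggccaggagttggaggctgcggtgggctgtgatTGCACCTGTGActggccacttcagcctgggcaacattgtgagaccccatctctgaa
BCAT1 intron, KO only: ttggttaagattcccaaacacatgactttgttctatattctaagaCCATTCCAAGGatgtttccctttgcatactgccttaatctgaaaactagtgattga

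Across the arm, the WT RPB1 list held 430 regions and the KO RPB1 list 416, a KO to WT ratio of 0.967 (95% interval 0.843 to 1.11). The WT pSer2 list held 1249 regions and the KO pSer2 list 816, a ratio of 0.653 (0.597 to 0.714). In the rest of the genome the ratios were 0.903 for RPB1 and 0.791 for pSer2, and on the long arm of the same chromosome they were 0.943 and 0.821. A region count is not an amount of signal, because continuous signal over a gene body can be listed as 1 wide region or as many narrow ones. In base pairs covered, pSer2 regions of the arm spanned 684983 bp in WT and 496372 bp in KO, a ratio of 0.725 against 0.809 elsewhere. RPB1 regions spanned 388420 bp and 332926 bp, a ratio of 0.857 against 0.841 elsewhere. The gap between the arm and the rest of the genome was thus smaller in covered length than in counts for pSer2, and for RPB1 the interval of the count ratio included the value of the rest of the genome.

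The libraries differed in their chance background, which is used here as a measure of depth. Read numbers and the fragment lengths used in calling were not used. The fragment pileup expected by chance over the genome, recovered from the values of the lists, was 0.997 in WT and 0.894 in KO for RPB1, and 2.94 in WT and 3.53 in KO for pSer2 before scaling to the input. By this measure the KO pSer2 library was the deeper one before scaling, at 1.20 times the WT value, and it listed fewer regions. After the scaling to the input used in its calling, the KO value was 3.00, beside 2.94 in WT. The KO RPB1 library was shallower by the same measure, at 0.896 times WT. As a check of the cell type, all 10 hepatocyte and hepatoma markers had a pSer2 region in WT and 9 of 10 had one in KO, among them ALB, AFP and APOB. FOXA2 had no RPB1 region in either genotype.

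Along the arm, the pSer2 difference was uneven. Counted from the telomere in bins of 5 Mb, the pSer2 ratio was 0.817 in the first bin, 0.809 in the second, which holds PTPN6, and 0.982 in the third. It was 0.683 in the fourth (63 WT and 43 KO regions) and 0.677 in the seventh (93 and 63). The lowest ratios were in the fifth bin, with 250 WT and 98 KO regions (0.392, interval 0.307 to 0.497), and in the sixth, with 297 and 141 (0.475, 0.386 to 0.582). Those 2 bins also held the most WT pSer2 regions of the arm, while 226 of the 430 WT RPB1 regions lay in the second bin. RPB1 counts in the fifth bin were 13 in WT and 16 in KO, and in the sixth 30 and 24. Within the fifth bin the difference sat in the fourth megabase, 23 to 24 Mb from the telomere, with 206 WT and 49 KO pSer2 regions, and the next megabase held 22 and 29.

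**Figure D1:**
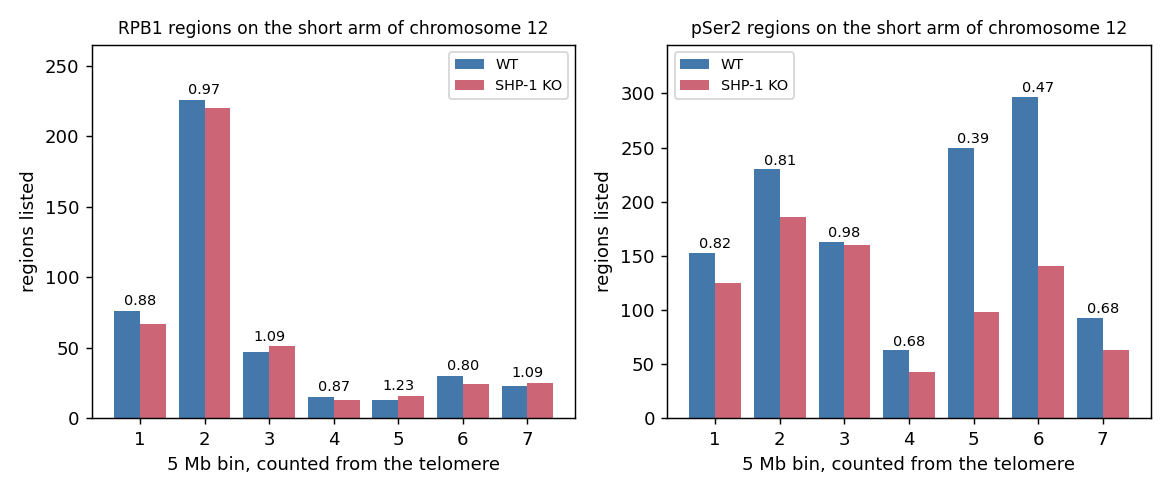
Numbers of RPB1 and pSer2 regions on the short arm of chromosome 12 in bins of 5 Mb counted from the telomere, in WT and KO cells, with the KO to WT ratio above each pair of bars. The pSer2 bars differ most in the fifth bin (250 and 98) and the sixth bin (297 and 141), and the RPB1 bars differ by at most 9 regions in any bin.

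PTPN6 did not sit in the stretch with the lowest ratios. On its telomeric side there were 304 WT and 246 KO pSer2 regions (0.809), and on its centromeric side 944 and 569 (0.603). The centromeric side includes SOX5 and ITPR2, which together held 478 WT and 162 KO pSer2 regions. Its lower ratio is therefore not a trait of that whole side. RPB1 regions numbered 211 and 193 on the telomeric side and 216 and 222 on the centromeric side. At PTPN6 itself, the promoter region of RPB1 had a fold enrichment over input of 24.0 in WT, with 75 fragments at its summit, and of 17.2 in KO, with 47 fragments. The pSer2 region at the same promoter had a fold enrichment of 4.03 with 31 fragments in WT and of 5.24 in KO, with 42 fragments that came to a pileup of 35.6 after scaling to the input. PTPN6 had 3 RPB1 regions in WT and 1 in KO, since the WT list also held a region just inside the gene (6947682 to 6948015, fold enrichment 4.83, 10 fragments) and another at its 3′ UTR (6961261 to 6961460, 4.01, 8 fragments). The promoter thus had a region of each antibody in both genotypes, and no region of either antibody in these lists covered a guide target. The promoter sequence upstream of the gene start (RefSeq, GRCh38.p14, chr12:6946327-6946467, forward strand) is shown because regions of both antibodies lay on it in both genotypes.
PTPN6 promoter: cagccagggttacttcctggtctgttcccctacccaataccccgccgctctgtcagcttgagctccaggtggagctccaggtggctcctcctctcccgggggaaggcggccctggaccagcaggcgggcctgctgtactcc

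SOX5 and ITPR2 carried most of the arm's difference in pSer2 regions. SOX5 encodes a transcription factor of the SOX family, and ITPR2 encodes an inositol trisphosphate receptor that releases calcium from the endoplasmic reticulum. SOX5 had 221 pSer2 regions in WT and 56 in KO, which covered 79588 bp and 19544 bp. ITPR2 had 257 in WT and 106 in KO, which covered 101283 bp and 40875 bp. Together they fell short by 316 regions in KO, which is 73.0% of the arm's difference of 433, on 4.31% of its length. They held 38.3% of the arm's pSer2 regions in WT and 19.9% in KO. Among the 13303 genes with a pSer2 region in either list, SOX5 and ITPR2 had the largest and the next largest difference between WT and KO counts, ahead of NFIA, which had 114 fewer in KO and is named for that rank after its values were seen. Without these 2 genes the arm held 771 WT and 654 KO pSer2 regions, a ratio of 0.848 (0.763 to 0.943). That interval included the 0.791 of the rest of the genome, from which no genes were left out. The 2 genes were picked by their differences in these counts, so leaving them out raises the ratio by that choice. The same limit applies to the ratios without them given below.

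SOX5 spans chr12:23529504-24562544 on the reverse strand and has an inner start at 23949703, 612.841 kb inside its outer start. Of its pSer2 regions, 199 of 221 in WT and 45 of 56 in KO lay downstream of that inner start, and none lay in the first 450 kb from the outer start. From 500 kb on, every 50 kb step had fewer regions in KO, for example 39 in WT and 11 in KO at 650 to 700 kb and 13 and 0 at 850 to 900 kb. RPB1 regions at SOX5 numbered 7 in WT and 6 in KO. The RPB1 region at the inner start had a fold enrichment of 7.48 in WT, and the KO list held narrower regions there with 4.14 and 4.49. At the end of the gene the strongest WT pSer2 region (23526529 to 23529931) had a fold enrichment of 8.08, with a pileup of 44 fragments over a background of 4.57. The KO region there (23526248 to 23529645) had a fold enrichment of 4.07, with 42 fragments, a pileup of 35.6 on the scale of its background of 8.00. The KO region thus had a lower pileup over a higher background.

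ITPR2 spans chr12:26335352-26833194 on the reverse strand. All 10 of its 50 kb steps held fewer pSer2 regions in KO, from 30 in WT and 20 in KO in the first 50 kb to 43 and 24 in the last. The lowest KO share was at 200 to 250 kb, with 29 in WT and 7 in KO. RPB1 regions at ITPR2 numbered 8 in WT and 4 in KO. The promoter region had a fold enrichment of 50.5 in WT and 32.8 in KO, with 175 and 110 fragments at the summit. The highest pSer2 fold enrichment of the gene was 8.62 in WT and 7.90 in KO. ITPR2 thus had fewer pSer2 regions in KO along its whole length.

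**Figure D2:**
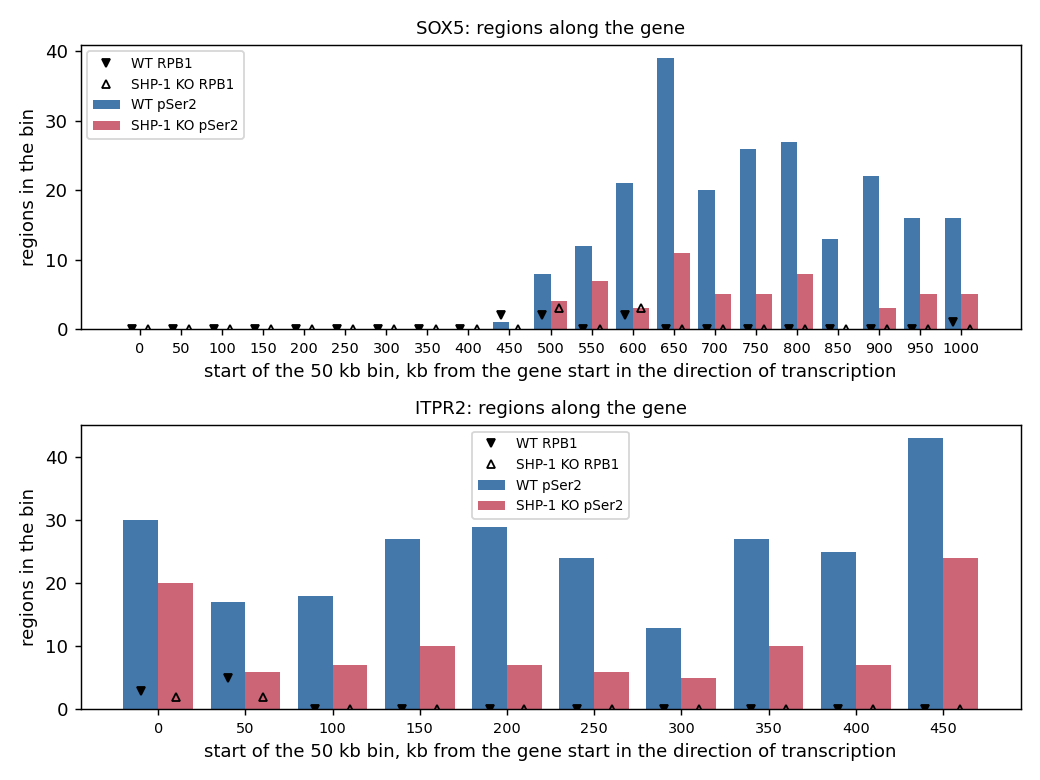
Number of pSer2 regions in 50 kb steps from the outer gene start to the gene end of SOX5 and ITPR2, in WT and KO cells. At SOX5 the regions begin beyond 450 kb and the WT count is highest at 650 to 700 kb (39 against 11 in KO), and at ITPR2 every step is lower in KO.

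G and C made up 39.6% and 24.8% of bases in the SOX5 and ITPR2 stretches printed above, and 58.4% and 35.6% in those of TEAD4 and BCAT1. The BCAT1 stretch, from KO only, was thus lower in G and C than the SOX5 stretch, from WT only. Over whole regions of the WT pSer2 list, the median G and C content was 35.2% at SOX5, 37.7% at ITPR2, 42.5% on the arm without these 2 genes and 44.3% in the rest of the genome. The median at DUSP16, which had 75 pSer2 regions in WT and 71 in KO, was 39.3%. Among these parts the median was thus lowest at SOX5 and ITPR2. The part of base composition in the result was not tested.

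Regions of these genes were weaker than others. The median −log10 q-value of SOX5 and ITPR2 pSer2 regions was 4.04 in WT and 3.82 in KO, against 4.91 and 4.78 on the rest of the arm. With only regions of a −log10 q-value of at least 5, SOX5 had 58 regions in WT and 8 in KO. ITPR2 had 90 and 31, and the rest of the arm had 348 and 306. With the same number of regions taken from both pSer2 lists, SOX5 had 158 and 56 and ITPR2 had 184 and 106, while the arm without them had 614 in WT and 654 in KO. The 2 genes had fewer regions in KO under each of these cuts.

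Overlap was described next, as the share of WT regions that at least 1 bp of a KO region covered. Of the arm's WT pSer2 regions, 487 of 1249 were overlapped (39.0%, exact interval 36.3 to 41.8), against 52.4% in the rest of the genome. At SOX5 the share was 33 of 221 (14.9%) and at ITPR2 57 of 257 (22.2%). Without both genes it was 51.5% (47.9 to 55.1). Of the arm's WT RPB1 regions, 295 of 430 were overlapped (68.6%, 64.0 to 73.0), against 61.8% elsewhere. Where regions overlapped, the median KO to WT ratio of fold enrichment was 1.02 for pSer2 on the arm and in the rest of the genome, 0.929 at SOX5 and ITPR2, and for RPB1 0.844 on the arm and 0.864 elsewhere. The background at overlapping pSer2 regions had a median KO to WT ratio of 1.02 on the arm, 1.02 elsewhere and 1.01 at SOX5 and ITPR2. The 1.02 matches the backgrounds of the whole libraries, 2.94 in WT and 3.00 in KO after scaling. On the arm and elsewhere it therefore does not describe the input at single loci. Over all listed pSer2 regions of SOX5 and ITPR2, the median background was 4.24 in WT and 4.00 in KO, above those whole-library values. In the rest of the genome it was 4.06 and 4.00. Whether the input at these 2 genes differed between the genotypes was not tested. WT pSer2 regions of the arm without a KO partner had a median fold enrichment of 3.43, and those with one 4.06.

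By the authors' annotation, the arm's pSer2 regions within introns numbered 710 in WT and 383 in KO (0.539), against a ratio of 0.769 elsewhere. Without SOX5 and ITPR2 the intron ratio was 0.839. Promoter pSer2 regions numbered 266 and 220 (0.827, against 0.830 elsewhere), and 3′ UTR regions 82 and 76. RPB1 regions at promoters numbered 242 and 239, and distal intergenic ones 33 and 19. Of the classes with at least 10 pSer2 regions on the arm, introns had the lowest ratio with all genes counted. Without SOX5 and ITPR2, downstream (0.684), distal intergenic (0.778) and exon regions (0.805) had lower ratios than introns.

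The arm was set beside windows of its own length. Of 74 full-length windows with at least 200 WT pSer2 regions, the arm had the fifth lowest pSer2 ratio and ranked 43 from the lowest for RPB1. When the 2 genes with the largest differences were left out of each window, the arm ranked 44. Their difference between WT and KO came to 25.3% of the WT regions of the arm, the largest such share of the 74 windows, and the next was 20.4% in the first window of chromosome 15. The 20 shorter windows at chromosome ends were left out.

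**Figure D3:**
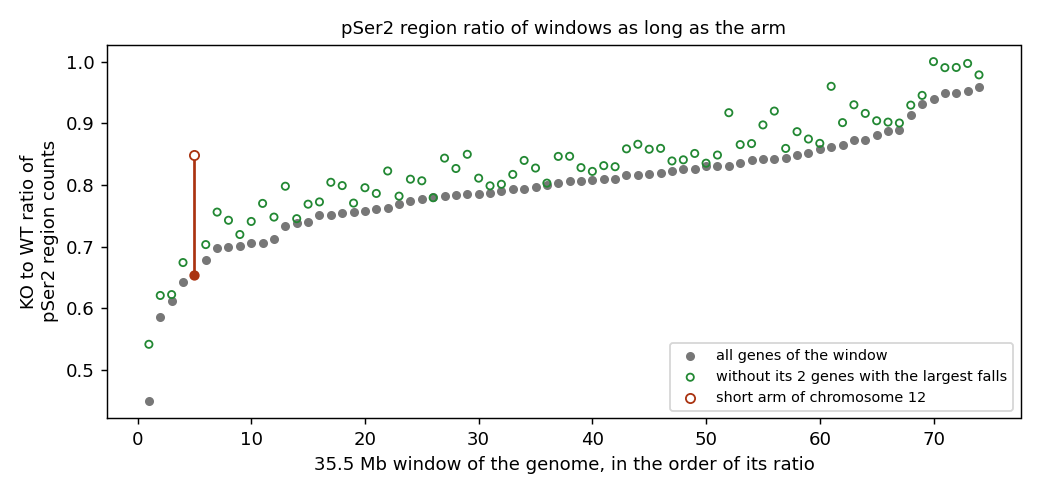
KO to WT ratio of pSer2 regions in 74 windows of the same length as the arm, with all genes and without the 2 genes of each window that had the largest differences. The short arm of chromosome 12 moves from 0.653 to 0.848.

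Over all genes, the arm was near the genome. Regions were assigned to 203 genes, and 167 of them had a pSer2 region in either genotype. Of these, 94 had fewer in KO (56.3%, against 59.6% of all genes), 45 had more and 28 had the same number. The median difference was -1 region per gene, as in the whole genome. For RPB1, 54 of 171 genes had fewer regions in KO (31.6%, against 37.5% of all genes), 43 had more and 74 the same number.

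Genes with pSer2 regions in WT and none in KO numbered 29 of 167 (17.4%, interval 11.9 to 24.0), beside 14.1% of all genes. Those with pSer2 regions in KO only numbered 8 (4.79%), beside 4.23%. For RPB1, 13 of 171 genes were listed in WT only (7.60%), beside 8.73%, and 7 in KO only (4.09%), beside 3.95%. Of the 68 genes with at least 5 pSer2 regions in either list, 17 had at most 0.5 of their WT number in KO (25%), beside 24.4% of all such genes. Another 6 had at least 2 times their WT number (8.82%, interval 3.31 to 18.2), beside 3.72%. Of the 3 genes with at least 50 WT regions, 2 had at most 0.5 in KO, beside 13.9%. All but the last 2 shares were near those of all genes, the last rests on 3 genes, and the contrast is the one by which the arm was selected, so nothing is read from them.

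**Figure D4:**
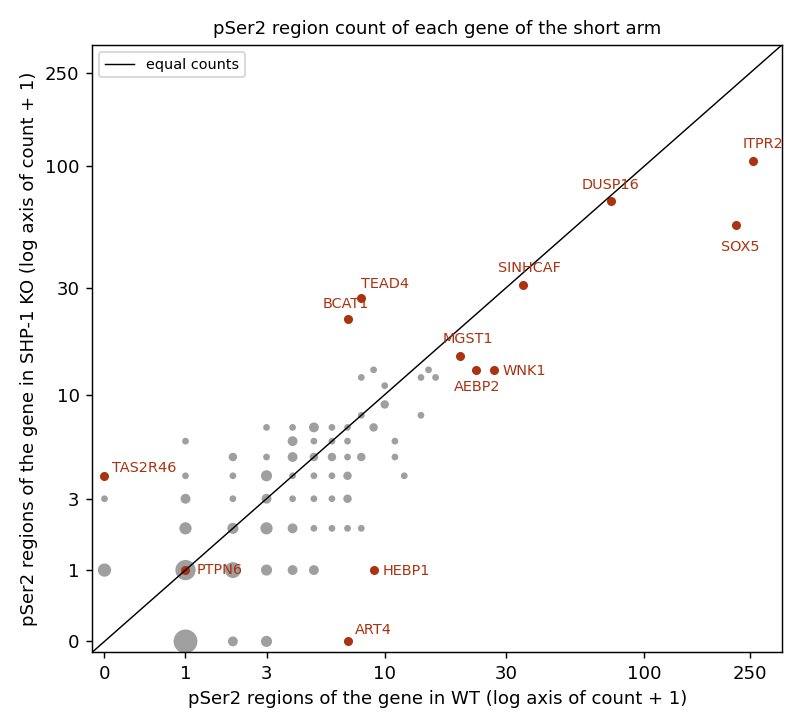
Number of pSer2 regions per gene in SHP-1 WT (x axis) and SHP-1 KO cells (y axis), as count plus 1 on log scales, for the 167 genes of the arm with a region, with point size giving the number of genes at a position. SOX5 (221 and 56) and ITPR2 (257 and 106) lie far below the diagonal, DUSP16 (75 and 71) lies near it, and TEAD4 (8 and 27) and BCAT1 (7 and 22) lie above it.

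Among the remaining genes with many pSer2 regions, DUSP16, a phosphatase of MAP kinases, had 75 in WT and 71 in KO. Its regions covered 57380 bp and 69532 bp, and 70 of its 75 WT regions (93.3%) were overlapped in KO. DUSP16 lay 5.51 Mb from the end of PTPN6, ITPR2 19.4 Mb and SOX5 16.6 Mb. The number of regions at DUSP16 was thus close in both genotypes, unlike that of the other 2 genes with at least 50. SINHCAF, a subunit of a SIN3-HDAC complex, had 35 and 31. WNK1, a kinase that regulates ion transport, had 27 and 13, and its highest RPB1 fold enrichment was 53.9 in WT and 18.6 in KO. AEBP2, a cofactor of Polycomb repressive complex 2, had 23 and 13, and the glutathione transferase gene MGST1 had 20 and 15.

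Smaller genes with fewer pSer2 regions in KO included HEBP1, which encodes a heme-binding protein, with 9 in WT and 1 in KO. ZNF384, a zinc finger transcription factor, had 12 and 4, although its highest RPB1 fold enrichment was 28.4 in WT and 40.7 in KO. PKP2, a desmosome protein, had 8 and 2, and TAPBPL, which edits peptides on MHC class I, had 11 and 5. Most PKP2 regions in WT and all in KO were classed as distal intergenic or downstream, so these counts are mostly not over the gene. ART4, the Dombrock blood group gene, had 7 and 0, and its highest RPB1 fold enrichment was 10.4 and 4.99. Each of these genes had at most 12 pSer2 regions, so a few regions near the calling threshold can set such counts.

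The largest differences in the other direction were at TEAD4 and BCAT1. TEAD4, a transcription factor of the Hippo pathway, had 8 pSer2 regions in WT and 27 in KO, which covered 4733 bp and 10673 bp. BCAT1, the cytosolic branched-chain aminotransferase, had 7 and 22, which covered 1870 bp and 10140 bp. Some BCAT1 regions of both lists lay beyond the gene end at 24810024, the farthest in WT starting at 24765424. With equal numbers of regions from both lists, TEAD4 had 5 and 27 and BCAT1 4 and 22. At a −log10 q-value of at least 5, each had 2 in WT and 7 in KO. With at least 20 fragments at the summit, scaled by depth in KO, TEAD4 had 2 and 3 and BCAT1 had 0 and 4, so most of the KO regions of both genes were weak. RPB1 regions numbered 6 and 4 at TEAD4, with a highest fold enrichment of 43.0 in WT and 38.6 in KO, and 1 and 2 at BCAT1, with 18.2 and 20.7. The highest RPB1 fold enrichment was thus lower in KO at TEAD4 and higher in KO at BCAT1, while both genes had more pSer2 regions in KO. GPR162, an orphan receptor gene near PTPN6, had 3 and 7 pSer2 regions and 3 and 7 RPB1 regions, MIR1244-2 had 1 and 6 pSer2 regions, and TAS2R46, a bitter taste receptor, had 0 and 4.

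Promoters of a gene with more, a gene with a close number and a gene with fewer pSer2 regions follow, from RefSeq (GRCh38.p14): BCAT1 at chr12:24949341-24949590 and DUSP16 at chr12:12562864-12563113 on the reverse strand, and WNK1 at chr12:752329-752578 on the forward strand. Capitals mark a TATA box (TATAAA) or a GC box (GGGCGG). Both strands were searched, and matches to the printed strand are in capitals.
BCAT1 promoter: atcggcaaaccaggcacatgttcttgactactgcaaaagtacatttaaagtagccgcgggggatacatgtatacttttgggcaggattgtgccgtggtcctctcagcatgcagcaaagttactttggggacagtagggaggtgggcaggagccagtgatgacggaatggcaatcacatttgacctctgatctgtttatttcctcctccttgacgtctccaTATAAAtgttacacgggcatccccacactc
DUSP16 promoter: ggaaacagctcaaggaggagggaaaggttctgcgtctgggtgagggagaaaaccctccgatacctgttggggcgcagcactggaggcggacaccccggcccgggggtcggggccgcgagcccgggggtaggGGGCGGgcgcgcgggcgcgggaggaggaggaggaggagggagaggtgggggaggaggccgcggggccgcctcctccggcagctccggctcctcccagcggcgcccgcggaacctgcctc
WNK1 promoter: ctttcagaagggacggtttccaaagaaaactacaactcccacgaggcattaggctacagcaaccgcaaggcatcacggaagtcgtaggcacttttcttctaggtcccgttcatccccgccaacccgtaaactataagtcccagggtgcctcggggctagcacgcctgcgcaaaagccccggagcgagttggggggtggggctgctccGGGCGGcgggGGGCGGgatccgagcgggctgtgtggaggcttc
Each printed promoter overlapped an RPB1 region in both genotypes. BCAT1 has other RefSeq promoters. That at chr12:24949102-24949351 also overlapped RPB1 regions in both genotypes, and held a GC box and no TATA box. Others, such as chr12:24903068-24903317, overlapped no region in any list. The GC box stood in 36.4% of the 450 promoters of the arm and 42.6% of all 35116, and the TATA box in 13.6% and 10.7%. The promoters of ITPR2 and TEAD4 are not printed here.

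RPB1 height was described over the 151 genes with RPB1 regions in both genotypes. The median KO to WT ratio of the highest fold enrichment per gene was 0.727, with 119 genes under 1, against 0.742 over 12877 genes of the genome. For pSer2 it was 0.940 over 130 genes, against 0.936. Of the genes with the highest WT values, the glycolytic gene GAPDH had an RPB1 fold enrichment of 100.7 in WT and 62.0 in KO. VAMP1, a vesicle fusion protein, had 79.0 and 36.9, TSPAN9, a tetraspanin, had 70.6 and 27.8, and STK38L, a kinase, had 67.3 and 38.0. FKBP4, a chaperone that binds HSP90, had 63.1 and 31.5, although it had 2 RPB1 regions in WT and 6 in KO. These genes were chosen by their WT values, which by itself favours lower values in KO, so nothing is read from them. By the medians above, lower heights in KO were shared with the rest of the genome, in a library that was also shallower than WT by its background.

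**Figure D5:**
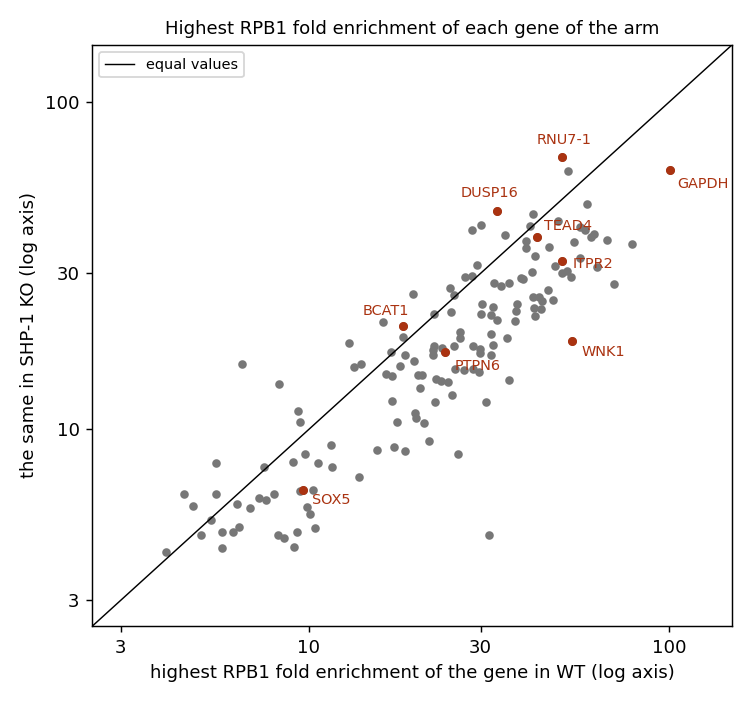
Highest RPB1 fold enrichment per gene in SHP-1 WT (x axis) and SHP-1 KO cells (y axis) on log scales, for the 151 genes of the arm with RPB1 regions in both. Of these, 119 lie below the diagonal of equal values, GAPDH highest in WT (100.7 and 62.0 in KO).

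Genes were also grouped by role in 8 lists that held 103 genes, of which 85 had a region. Of the 78 with a pSer2 region, 46 had fewer in KO, beside 59.6% of all genes, 17 had more and 15 the same, with a median difference of -1. Around PTPN6, 27 genes, PTPN6 among them, held 90 pSer2 regions in WT and 75 in KO, and 82 and 90 RPB1 regions. Of them, 15 had fewer pSer2 regions (beside 59.6% of all genes), 5 more (beside 23.1%) and 7 the same. RNU7-1, which encodes the U7 small nuclear RNA of histone mRNA processing, had an RPB1 fold enrichment of 50.4 and 68.2 and a pSer2 fold enrichment of 15.5 and 24.5. ENO2, an enolase gene, had 4 and 1 RPB1 regions, and their highest fold enrichment was 31.7 and 4.75. TPI1, triosephosphate isomerase, had 3 pSer2 regions in both genotypes, with 25.6 and 6.81 as the highest fold enrichment.

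The carbohydrate metabolism genes held 15 pSer2 regions in WT and 16 in KO, and the complement and protease inhibitor genes 16 and 17. A2M, which encodes a plasma protease inhibitor of the liver, had 27 and 28 RPB1 regions. Of 11 genes of liver transport and metabolism, 6 had no region in any list, including the organic anion transporter genes SLCO1B1 and SLCO1B3. The list held 51 pSer2 regions in WT and 54 in KO, and 44 and 32 without BCAT1. Of its 4 genes with a pSer2 region, 3 had fewer in KO, beside 59.6% of all genes. Mitochondrial genes held 44 and 33, with 6 of 8 genes lower in KO beside 59.6% of all genes, while their RPB1 regions numbered 12 and 17. Cell cycle and DNA repair genes held 27 and 23 pSer2 and 19 and 13 RPB1 regions, where RAD52, a recombination gene, had 5 and 1 RPB1 regions.

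Chromatin and transcription genes held 284 and 121 pSer2 regions, and 63 and 65 without SOX5. Signalling and trafficking genes held 415 and 242, and 158 and 136 without ITPR2. The low counts of these 2 lists in KO were thus largely those of 1 gene each. Of genes on the arm that mark other cells, 13 of 17 lymphoid and myeloid genes and 7 of 8 neuronal genes had no region in any list. Of 21 taste receptor and salivary genes, 12 had none, and the others held 10 pSer2 regions in WT and 22 in KO. The taste receptor genes are near copies of each other, so their counts are uncertain.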

How the data were processed

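ChIP-seq of RPB1 and pSer2 was made from WT and KO HepG2 cells, with 1 library each. The authors used Trimmomatic for trimming, BWA for alignment to GRCh38 (hg38) and MACS2 for calling regions against input, according to the submitters' processing notes. Versions were not given in the sources used here. The deposited lists give the fold enrichment, a ratio over input at the summit, the −log10 p-value, the −log10 q-value, a score, and the authors' nearest gene and feature class. The lowest −log10 q-value was about 1.3, and the shortest region 200 bp. A deposited table of RPB1 differences from csaw, with numbers of windows going up and down, p-values and adjusted p-values, was not used.

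Regions were counted as listed, by the authors' gene, with 1 bp of overlap. Shares have exact Clopper-Pearson 95% intervals, and ratios of 2 counts have the interval of the corresponding binomial share. The intervals cover counting error only. No test was made, because there is 1 library for each antibody and genotype. Fragments at the summit were recovered from fold enrichment and p-value as whole numbers under the Poisson model of MACS2 with a pseudocount, which succeeded for 99.6% to 100% of regions. On simulated regions, 100% of 1983 were recovered without scaling and 100% of 1967 with a scale of 0.85. Guides, summits and G and C content were read from hg38, gene bounds from GENCODE release 44, and promoters (250 bases) from RefSeq GRCh38.p14.

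The genes named were PTPN6, the role lists, and the genes with the most WT regions (10), the largest differences in counts (10 fewer, 5 more) and the highest RPB1 fold enrichment. The arm, the genes and the lists were chosen with earlier results of these data known. Alternatives were a −log10 q-value of at least 5, equal numbers of regions, merged regions, covered base pairs, either side of PTPN6, other bins, 50% reciprocal overlap, no distal regions and at least 2 regions per gene. Python 3.11.15, pandas 2.3.3, NumPy 2.4.6, SciPy 1.17.1 and matplotlib 3.10.9 were used.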

Additional observations from a re-analysis of the deposited data

How the results depend on the processing

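The pSer2 ratio of the arm, 0.653, was 0.725 in covered base pairs, 0.809 on the telomeric side of PTPN6 and 0.854 with equal numbers of regions from both lists, where the rest of the genome had 1.00. In an alternative chosen after seeing the data, it was 0.848 without SOX5 and ITPR2, and then 2 of 7 bins instead of 4 lay under the ratio of the rest of the genome, and the overlapped share of WT pSer2 regions was 51.5%. With bins of 2.5 Mb, 8 of 14 lay under it. The overlapped shares were 76.0% for RPB1 and 45.0% for pSer2 at a −log10 q-value of at least 5, 47.4% and 18.3% with 50% reciprocal overlap, and 44.7% for pSer2 with equal numbers, where the median pSer2 fold enrichment ratio was 0.973. Genes with pSer2 regions in KO only numbered 13 at the stricter q-value, 13 with equal numbers and 13 without distal and downstream regions. With at least 2 regions per gene, 8 genes were listed in WT only and 2 in KO only for pSer2, and 1 and 2 for RPB1. The cause of these differences was not tested. Of 53 values for the arm under alternatives, 33 stayed within the interval of the reported value or within 1.5 times a count, and 20 did not. Merging regions changed no value, because no regions of a list were joined on the arm. Its values are among the 33 but carry no information on stability. Several values whose interval includes 1 crossed it. The RPB1 ratio of 0.967 was 1.02 with equal numbers and 1.03 on the centromeric side of PTPN6. The median pSer2 fold enrichment ratio of 1.02 was 0.986 with 50% reciprocal overlap, as it was under 1 with equal numbers. The DUSP16 ratio of 0.947 was 1.28 at the stricter q-value and 1.04 with equal numbers. The arm without SOX5 and ITPR2 also changed direction, although its interval (0.763 to 0.943) did not include 1. It had fewer pSer2 regions in KO as listed (771 and 654, a ratio of 0.848). With equal numbers it had more (614 and 654, 1.07). In a further alternative chosen after seeing the data, with at least 20 fragments at the summit in WT and as many scaled by depth in KO, the ratio was 0.663 on the arm and 0.749 elsewhere. No paired analysis was possible because each antibody and genotype has 1 library, and for the same reason no replicate could be left out. Depth limits weak regions most, and a region that is not listed may lie just under the calling threshold.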
